A study of Mus musculus with 22 samples.

Results

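The collagens and the matrix genes of cardiac fibrosis were followed in RNA of ventricular cardiomyocytes from 3 mouse lines. The set held 70 genes of the 46813 listed in all 3 comparisons of the study. It was formed from the 44 genes whose symbol has the form of a collagen alpha chain and from 26 further genes that form, crosslink, turn over or signal to matrix. By role, 11 genes encode chains of fibrillar collagens, 8 chains of basement membrane collagens, 9 chains of microfibrils and networks, 9 FACIT collagens (chains that decorate fibrils), 4 transmembrane collagens and 3 other collagens. The others are 9 matricellular genes, 5 genes of matrix turnover, 3 crosslinking enzymes, 3 proteoglycans, 3 growth factors, 2 genes of elastic fibres and fibronectin.

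Each library came from the ventricles of 1 male mouse, dissociated by perfusion with collagenase. CASK KO mice carried MHC-Cre and CASK fl/fl on a Mixed background (3 mice, 10.1 to 11.3 weeks) and were set against CASK control mice with MHC-Cre alone (3 mice, 11.0 to 12.7 weeks, Mixed). SAP97 KO mice carried MHC-Cre and SAP97 fl/fl (3 mice, 10.7 to 13.0 weeks, Mixed) and were set against SAP97 control mice with SAP97 fl/fl and no Cre (3 mice, 10.6 to 13.0 weeks, Mixed). MDX mice, which lack dystrophin, were MDX -/- (4 mice, 10.9 to 17.7 weeks, on C57Bl/6Ros, with replicate 5 Mixed and backcrossed) and were set against wild-type MDX control mice (5 mice, 10.9 to 14.7 weeks, on C57Bl/6J or C57Bl/6, with replicate 5 Mixed and backcrossed). Cre was driven by the alpha-MHC promoter, which is active in cardiomyocytes, so the floxed genes of other cell types were not a target. Strain, age and Cre differ between the 3 control groups, and their parts cannot be told apart. By the labels, Cre also differs between SAP97 KO and SAP97 control, and strain between most MDX and MDX control mice. Within these lines Cre or strain cannot be told apart from loss of SAP97 or dystrophin. The methods give removal of ribosomal RNA for every library, whereas the labels give poly-A capture for WT ones, so how the MDX control libraries were made is uncertain. A summary table of the study lists the SAP97 control mice with Cre, against their labels. Every p-value measures the spread between mice.

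Collagens are proteins of 3 chains each, most of them secreted and a few held in the cell membrane. Fibrillar collagens form the tensile fibres of the interstitium, and type IV collagen forms the sheet that surrounds each cardiomyocyte and capillary. Matricellular proteins are secreted into the matrix without being a structural part of it and act on cells, and members of the TGF-beta family are the best known inducers of matrix genes in the heart. In the heart, fibroblasts make most fibrillar collagen, whereas endothelial and mural cells and cardiomyocytes also contribute to basement membranes.

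The 21 libraries analysed held between 24253610 and 42159185 counts on genes. Levels are given in CPM, a library's counts per 1000000 of its scaled total, with scaling by TMM over all 21 libraries. The targeted genes followed their labels. Cask was at 0.602 to 2.33 CPM in CASK KO and 8.77 to 9.84 CPM in CASK control, Dlg1, which encodes SAP97, at 11.3 to 13.4 CPM in SAP97 KO and 56.0 to 68.9 CPM in SAP97 control, and Dmd at 76.0 to 124 CPM in MDX and 230 to 323 CPM in MDX control. The CASK control libraries, at 42.9 to 50.3 CPM, held less Dmd than the MDX libraries did. Dmd was at 143 to 197 CPM in CASK KO, so it also differed between the groups of the CASK line. It was at 173 to 192 CPM in SAP97 KO and 304 to 416 CPM in SAP97 control. The 8 cardiomyocyte markers summed to 40706 to 62479 CPM per library. Markers of other cell types summed to far less, with 12 fibroblast markers at 48.4 to 145 CPM and 9 endothelial markers at 125 to 413 CPM. Lrp1 was the highest of the 12 fibroblast markers in every library, at 25.3 to 85.5 CPM, and made up much of their sum. Cthrc1, an activated fibroblast marker, was at 0 in 4 libraries. Fewer cells of a type and less RNA per cell cannot be told apart in these libraries.

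The matrix transcripts of these preparations were mostly those of basement membrane and of a few matricellular genes. To compare genes, CPM were divided by the summed exon length in kilobases. Over all 21 libraries Cyr61, a matricellular gene induced by stretch and growth signals, had the highest level, at 58.1 ± 18.0 CPM per kb (SD over 21 libraries). It was followed by the type IV collagen chain Col4a1 (36.1 ± 9.69 CPM per kb), the small proteoglycan decorin (Dcn, 32.7 ± 10.4 CPM per kb), the second type IV chain Col4a2 (30.9 ± 5.46 CPM per kb), Sparc, a collagen-binding matricellular protein (23.0 ± 7.17 CPM per kb), and Ctgf (22.2 ± 21.7 CPM per kb). The ranges of Col4a1 and Col4a2 overlapped. Dcn was scaled by a deposited length of 2084 bases, against 5838 exon bases in the annotation used for exon overlap. With the longer length its level per kb would be lower, so its place depends on the length used. The order differed in CASK control, where Ctgf and Col4a1 had higher mean levels per kb than Cyr61, while Cyr61 led in the other 5 groups. These 6 genes were the only ones at or above 10 CPM per kb. A further 25 genes lay between 1 and 10 CPM per kb, 21 between 0.1 and 1, and 18 below 0.1, and all of these 18 were collagens.

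Col4a1 and Col4a2 together held 62.5 to 74.8% of the collagen CPM per kb of a library, with a median of 66.2%. The 11 fibrillar chains together held 7.67 to 16.6%, with a median of 13.7%. The type IV chains are encoded in pairs that start next to each other and run in opposite directions. Col4a1 and Col4a2 start 21 bases apart on chromosome 8 (GRCm38) and had nearly equal levels, with a ratio of 1.17. Col4a3 and Col4a4 start 72 bases apart on chromosome 1, with a ratio of 0.654 at a low level (0.158 and 0.242 CPM per kb). Col4a5 and Col4a6 start 1309 bases apart on chromosome X and had a ratio of 88.8, with Col4a5 at 7.85 and Col4a6 at 0.0883 CPM per kb. The X-linked pair was thus the most unequal.

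Among fibrillar chains, Col3a1, the chain of type III collagen, was highest at 5.64 ± 2.35 CPM per kb. The type I chains Col1a1 and Col1a2 had 2.12 ± 0.918 and 2.05 ± 0.769 CPM per kb, and the ratio of Col3a1 to Col1a1 per kb ran over the libraries between 1.19 and 4.38. Col6a1, of the microfibrillar type VI collagen, led its class at 3.58 CPM per kb. Cartilage chains were at the other end, with Col2a1 at 0.00447 and Col9a1 at 0.001 CPM per kb and at 0 in some libraries. Outside the collagens, Timp2, an inhibitor of matrix metalloproteinases, had 4.0 CPM per kb, fibrillin 1 (Fbn1), the backbone of elastic microfibrils, 2.2, the crosslinking enzyme Loxl1 2.0, Tgfb3 1.67 and fibronectin (Fn1), an adhesive glycoprotein, 1.06. Col14a1, Col13a1 and Col28a1 led the FACIT, transmembrane and other collagens at 0.507, 0.138 and 0.0634 CPM per kb.

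**Figure D1:**
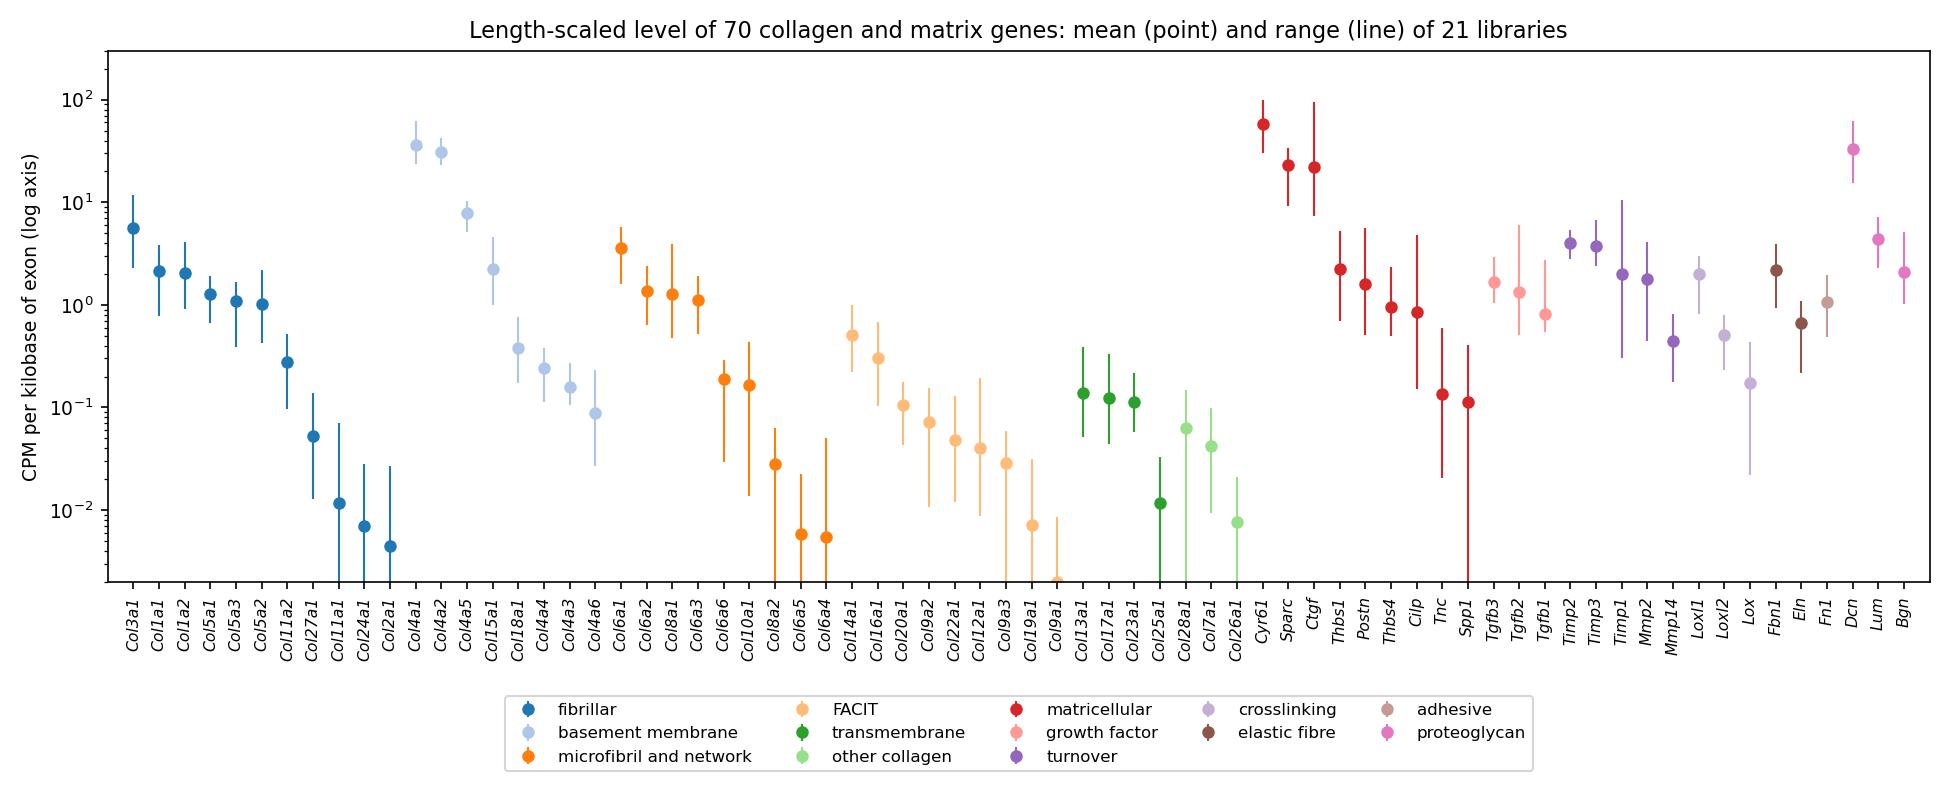
Level of each of the 70 genes in CPM per kilobase of exon (log axis), grouped by role; points are means over 21 libraries and lines run from the lowest to the highest library. Lines that reach the edge of the plot belong to genes at 0 in at least 1 library, and the mean of Col9a1, 0.001 CPM per kb, lies below the axis. Col4a1 and Col4a2 stand above all other collagens.

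Whether loss of CASK changed matrix genes was asked by setting CASK KO against CASK control. The 6 largest differences were in Tgfb2, Timp1 and the matricellular genes Cilp, Ctgf, Tnc and Postn, each with lower values in CASK KO, and those of the main fibrillar and type IV chains were smaller. No gene of the set passed the test. Of the 70 genes, 58 had enough counts to be tested and 12 did not. By the quasi-likelihood test of edgeR with Benjamini-Hochberg adjustment over all genes, 0 of the 58 were called at an adjusted p of 0.01, and so were 0 of all genes (0%). The test did not call Cask itself either (adjusted p = 0.148). DESeq2 called 3 genes of the set, Tgfb2, Ctgf and Timp1, and 116 of all genes (0.654%). At an unadjusted p under 0.05, 13 genes were lower in CASK KO, against 4.31% of all genes, and 1 was higher, against 4.53% of all genes. Of the 58 fold changes, 42 were below 0 (48.0% of all genes) and 16 above 0. The median log2 fold change was -0.27, against 0.01 over all genes, and it was -0.076 without CASK control replicate 1 and -0.46 without CASK control replicate 3. With no filter on low counts, edgeR called 7 genes of the set (Cilp, Col8a1, Ctgf, Postn, Tgfb2, Timp1 and Tnc), all with lower values in CASK KO, and 182 of all genes (0.608%). With the replicate number as a block, taken to pair the mice of this line, 0 genes of the set were called (0.0735% of all genes), and at an unadjusted p under 0.05 15 were lower (6.54% of all genes) and 2 higher (7.08% of all genes).

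The growth factor Tgfb2, a TGF-beta ligand, had 6.89, 3.31 and 4.73 CPM in CASK KO, against 34.4, 28.2 and 11.1 CPM in CASK control. The groups did not overlap, and replicate 3 was the lowest CASK control. The log2 fold change was -2.27 (SE 0.45, adjusted p = 0.208; adjusted p = 1.42e-05 by DESeq2). Tgfb3, another ligand of the family, had 4.46, 5.95 and 5.03 CPM in CASK KO, against 7.72, 9.84 and 7.67 CPM in CASK control, again with no overlap (log2 fold change -0.68, SE 0.18, adjusted p = 0.317). Tgfb1 had a log2 fold change of 0.02 (SE 0.21). Tgfb1 thus lay at the same level in both groups within its error.

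Among matricellular genes, 7 of the 8 tested had a log2 fold change below 0, with a median of -1.20. Ctgf, a matricellular gene that TGF-beta and stretch induce, had 40.6, 34.0 and 51.3 CPM in CASK KO, against 275, 201 and 72.6 CPM in CASK control. The groups did not overlap, and CASK control replicate 3 lay nearest to the CASK KO mice (log2 fold change -2.10, SE 0.44, adjusted p = 0.224; adjusted p = 5.99e-05 by DESeq2). Cilp, a matrix protein of cartilage that is also made by cardiac fibroblasts, had 3.60, 3.60 and 1.78 CPM in CASK KO and 15.7, 20.5 and 3.24 CPM in CASK control. CASK control replicate 3 lay below the highest CASK KO value, so the groups overlapped (log2 fold change -2.10, SE 0.61, adjusted p = 0.352). Periostin (Postn), a marker of activated fibroblasts, had 11.6, 11.5 and 11.6 CPM in CASK KO, against 39.99, 49.0 and 10.9 CPM in CASK control. Its 3 CASK KO values were nearly equal, and CASK control replicate 3 lay below them (log2 fold change -1.49, SE 0.46, adjusted p = 0.395). Tenascin C (Tnc), which appears at sites of tissue injury, had 0.836, 1.40 and 0.711 CPM in CASK KO and 4.62, 3.36 and 1.02 CPM in CASK control (log2 fold change -1.59, SE 0.53, adjusted p = 0.422). Cyr61, the close relative of Ctgf, was the exception of the class, with a log2 fold change of 0.35 (SE 0.26, adjusted p = 0.801).

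In matrix turnover, Timp1, an inhibitor of metalloproteinases that injury induces, had 1.04, 2.35 and 0.684 CPM in CASK KO, against 6.82, 9.25 and 3.02 CPM in CASK control. The groups did not overlap (log2 fold change -2.20, SE 0.53, adjusted p = 0.272; adjusted p = 0.00134 by DESeq2). The crosslinking enzyme Lox had 0.608, 0.952 and 0.766 CPM in CASK KO and 1.96, 2.11 and 0.748 CPM in CASK control, where replicate 3 was again the lowest (log2 fold change -1.02, SE 0.42, adjusted p = 0.550).

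The structural collagens had smaller differences. The 8 fibrillar chains tested had a median log2 fold change of -0.30 and the 8 basement membrane chains of -0.13. Col1a1 had 12.3, 12.6 and 19.0 CPM in CASK KO and 23.5, 18.4 and 13.5 CPM in CASK control (log2 fold change -0.31, SE 0.25). Col3a1 had 49.5, 68.5 and 68.0 CPM in CASK KO and 116, 90.1 and 62.2 CPM in CASK control (log2 fold change -0.50, SE 0.24, adjusted p = 0.616). Both sets of values overlapped, with CASK control replicate 3 among the CASK KO mice. Col4a1 had 283, 278 and 316 CPM in CASK KO and 462, 415 and 262 CPM in CASK control (log2 fold change -0.35, SE 0.23, adjusted p = 0.756). Among the other collagens, Col8a1, a network collagen of vessels, had 6.74, 6.72 and 4.90 CPM in CASK KO and 20.1, 19.7 and 6.18 CPM in CASK control (log2 fold change -1.29, SE 0.41, adjusted p = 0.404). The FACIT chain Col12a1 had 0.482, 0.370 and 0.410 CPM in CASK KO, against 1.34, 1.1 and 0.5263 CPM in CASK control, with no overlap (log2 fold change -1.20, SE 0.42, adjusted p = 0.454). Col10a1, a network collagen of hypertrophic cartilage, was the 1 gene higher at an unadjusted p under 0.05, with 0.482, 0.291 and 0.438 CPM in CASK KO and 0.142, 0.0595 and 0.277 CPM in CASK control (log2 fold change 1.35, SE 0.54, adjusted p = 0.528).

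In all, 8 of the tested genes were lower in every CASK KO library than in any CASK control library, against 9.38% of all genes, and 2 were higher, against 5.67% of all genes. The count of 13 lower genes at an unadjusted p under 0.05 became 7 when CASK control replicate 1 was left out, 8 when CASK KO replicate 3 was left out and 25 when CASK control replicate 3 was left out. The sum of the 7 activated fibroblast markers was mostly that of the smooth muscle actin Acta2. It ran between 85.2 and 164 CPM in CASK KO and between 91.0 and 353 CPM in CASK control, with overlap. Acta2 alone had 84.0, 153 and 75.2 CPM in CASK KO and 187, 332 and 83.1 CPM in CASK control. Of the 6 markers tested, 5 had a log2 fold change below 0 and 1, Fap, above 0 (0.39). The 12 fibroblast markers summed to 103 to 108 CPM in CASK KO and 76.4 to 143 CPM in CASK control, with 6 above and 6 below 0, and the 9 endothelial markers to 287 to 305 CPM in CASK KO and 163 to 253 CPM in CASK control, with 9 of 9 above 0. Of 10 macrophage markers, 9 were below 0, with sums of 37.0 to 54.8 CPM in CASK KO and 41.4 to 76.8 CPM in CASK control. The part of these cells in the matrix values was not tested.

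**Figure D2:**
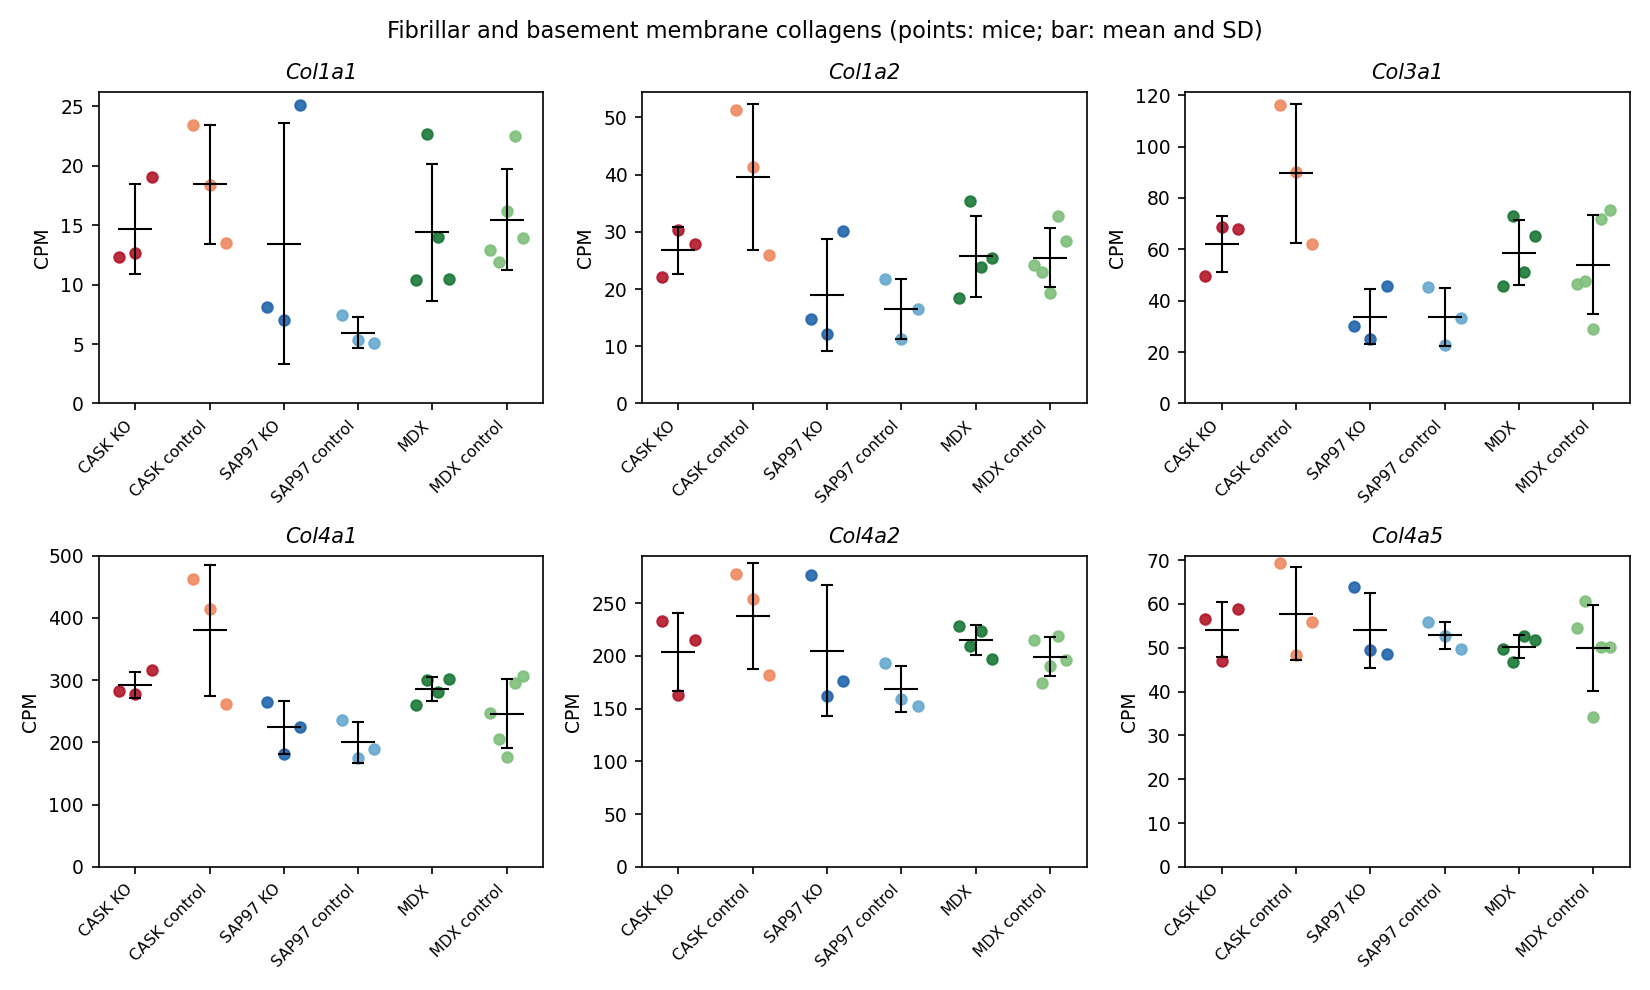
CPM of single mice for 3 fibrillar chains (Col1a1, Col1a2, Col3a1) and 3 type IV chains (Col4a1, Col4a2, Col4a5) in the 6 groups, with each knockout left of its control; points are mice and bars the mean and SD. The groups of each line overlap in every panel, and SAP97 KO replicate 3 is the highest library for Col1a1 at 25.1 CPM.

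SAP97 KO was set against SAP97 control in the same way. No gene of the set passed the test, and the 6 largest differences (Col12a1, Col10a1, Col1a1, Tgfb2, Cilp and Timp1) were higher values in SAP97 KO. Of 55 genes tested, 0 were called by edgeR, against 3 of all genes (0.0204%), and 0 by DESeq2, against 46 of all genes (0.256%). With no filter on low counts, edgeR called 4 genes of the set (Col11a1, Col1a1, Ctgf and Tgfb2), all with higher values in SAP97 KO, and 134 of all genes (0.486%). At an unadjusted p under 0.05, 5 genes were higher in SAP97 KO (4.69% of all genes) and 0 lower (3.28%). Of the 55 fold changes, 43 were above 0 (54.8% of all genes), and the median log2 fold change was 0.23, against 0.03 over all genes. Without SAP97 KO replicate 3 this median was -0.073, and it ran between 0.13 (without SAP97 control replicate 2) and 0.35 (without SAP97 KO replicate 2) when any other library was left out.

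Tgfb2 had 9.54, 7.16 and 5.16 CPM in SAP97 KO, against 3.62, 3.82 and 3.48 CPM in SAP97 control. The groups did not overlap, and the 3 SAP97 control values lay close together (log2 fold change 1.06, SE 0.23, unadjusted p = 0.00139, adjusted p = 0.352). Cilp had 2.72, 2.25 and 2.27 CPM in SAP97 KO and 1.62, 0.779 and 1.26 CPM in SAP97 control, with no overlap (log2 fold change 1.05, SE 0.32, adjusted p = 0.596). Timp2 had 19.8, 16.1 and 17.7 CPM in SAP97 KO and 13.9, 12.3 and 12.6 CPM in SAP97 control, also with no overlap (log2 fold change 0.53, SE 0.14, adjusted p = 0.504). Together with Col10a1, at 0.800, 1.34 and 1.31 CPM in SAP97 KO and 0.35, 0.745 and 0.132 CPM in SAP97 control (log2 fold change 1.55, SE 0.57, adjusted p = 0.610), these were the 4 tested genes higher in every SAP97 KO library, against 5.21% of all genes. No tested gene was lower in every SAP97 KO library, against 8.06% of all genes. Timp1 had 1.06, 1.45 and 1.33 CPM in SAP97 KO and 1.08, 0.271 and 0.761 CPM in SAP97 control (log2 fold change 0.92, SE 0.48, adjusted p = 0.659).

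The values of the collagens Col1a1 and Col12a1 rested on SAP97 KO replicate 3. Col1a1 had 8.10, 7.05 and 25.1 CPM in SAP97 KO and 7.44, 5.35 and 5.06 CPM in SAP97 control (log2 fold change 1.26, SE 0.46, adjusted p = 0.610), and 0.37 without that mouse. Col12a1 had 0.320, 0.254 and 2.92 CPM in SAP97 KO and 0.413, 0.542 and 0.132 CPM in SAP97 control (log2 fold change 1.78, SE 0.95, adjusted p = 0.667), and -0.31 without that mouse. Col3a1 had 30.3, 25.3 and 45.7 CPM in SAP97 KO and 45.2, 22.6 and 33.2 CPM in SAP97 control (log2 fold change 0.08, SE 0.29), and Col4a1 266, 181 and 225 CPM in SAP97 KO and 237, 175 and 189 CPM in SAP97 control (log2 fold change 0.23, SE 0.19). The fibrillar and basement membrane chains had medians of 0.18 each. Fibroblast markers summed to 48.4 to 80.1 CPM in SAP97 KO and 53.3 to 75.7 CPM in SAP97 control, and activated fibroblast markers, mostly the smooth muscle actin Acta2, to 55.1 to 95.7 CPM in SAP97 KO and 27.5 to 53.9 CPM in SAP97 control. Of the 5 activated fibroblast markers tested, 2 had a log2 fold change above 0 and 3 below, with a median of -0.02. Acta2 had the highest, at 1.15 (adjusted p = 0.459 by edgeR). The part of these cells was not tested.

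Loss of dystrophin is a cause of cardiac fibrosis in older animals, which is the background to setting MDX against MDX control. In these mice no gene of the set passed the test. The 8 fibrillar chains tested had log2 fold changes between -0.57 and 0.27, with a median of 0.07. Of 56 genes tested, 0 were called by edgeR, as were 0 of all genes (0%), and 0 by DESeq2, against 19 of all genes (0.1%). The edgeR test did not call Dmd itself either (adjusted p = 0.068), whereas DESeq2 did (adjusted p = 8.29e-11). At an unadjusted p under 0.05, 2 genes were higher in MDX (1.28% of all genes) and 0 lower (1.44%). The median log2 fold change was 0.10, against -0.01 over all genes, with 38 above 0 (48.2% of all genes) and 18 below. It was 0.033 without MDX replicate 3 and 0.051 without MDX control replicate 2.

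All 8 matricellular genes tested had a log2 fold change above 0, with a median of 0.33. Ctgf had 38.79, 55.6, 43.8 and 44.2 CPM in MDX, against 34.7, 29.0, 21.1, 33.6 and 37.6 CPM in MDX control. The groups did not overlap, though the lowest MDX value was close to the highest MDX control value (log2 fold change 0.54, SE 0.17, unadjusted p = 0.00873, adjusted p = 0.9999). Thrombospondin 1 (Thbs1), which activates latent TGF-beta, had 12.8, 27.1, 23.0 and 14.2 CPM in MDX and 6.33, 9.72, 15.4, 7.83 and 13.5 CPM in MDX control, with overlap (log2 fold change 0.85, SE 0.31, unadjusted p = 0.0191, adjusted p = 0.9999). Tnc had 0.4933, 1.49, 1.53 and 0.860 CPM in MDX and 0.469, 0.492, 0.904, 0.726 and 0.686 CPM in MDX control (log2 fold change 0.74, SE 0.39). Osteopontin (Spp1), a matricellular protein of inflamed muscle, had too few counts for the test, with 0.282, 0.208, 0.666 and 0.251 CPM in MDX and 0.0879, 0.0615, 0.106, 0.0631 and 0 CPM in MDX control. The Spp1 values did not overlap. Ctgf was the 1 tested gene higher in every MDX library, against 0.597% of all genes, and Col4a3 the 1 lower in every MDX library, against 0.610% of all genes. For Col4a3 the groups nearly touched, with a highest MDX value of 1.656 CPM and a lowest MDX control value of 1.660 CPM.

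Timp1 had 1.83, 0.624, 1.27 and 1.36 CPM in MDX and 0.498, 0.615, 1.28, 0.410 and 0.643 CPM in MDX control (log2 fold change 0.89, SE 0.42), where replicate 3 alone of the MDX control mice lay within the upper MDX values. Lox had 0.705, 0.798, 1.68 and 0.824 CPM in MDX and 0.586, 0.461, 0.106, 1.23 and 0.472 CPM in MDX control (log2 fold change 0.79, SE 0.51). Tgfb1 had 4.55, 3.75, 3.59 and 4.37 CPM in MDX and 2.90, 3.04, 13.8, 4.58 and 5.23 CPM in MDX control. Its log2 fold change of -0.57 (SE 0.45) was 0.06 without MDX control replicate 3. Col27a1, a fibrillar chain of cartilage, had 0.634, 0.728, 0.666 and 0.681 CPM in MDX and 0.909, 0.615, 1.81, 0.821 and 0.858 CPM in MDX control (log2 fold change -0.57, SE 0.36, and -0.23 without MDX control replicate 3). For the main collagens, Col1a1 had a log2 fold change of -0.12 (SE 0.27), Col3a1 of 0.12 (SE 0.25) and Col4a1 of 0.21 (SE 0.18). Fibroblast markers summed to 77.8 to 138 CPM in MDX and 90.6 to 145 CPM in MDX control, with 8 of 12 above 0. Activated fibroblast markers, mostly Acta2, summed to 55.8 to 102 CPM in MDX and 33.7 to 64.7 CPM in MDX control, with 3 of the 6 tested above 0 and a log2 fold change of 1.1 for Acta2 (adjusted p = 0.923 by edgeR). Endothelial markers, of which 8 of 9 were above 0, summed to 281 to 380 CPM in MDX and 212 to 413 CPM in MDX control, and macrophage markers, of which 8 of the 9 tested were above 0, to 35.2 to 51.7 CPM in MDX and 27.2 to 47.6 CPM in MDX control. The part of these cells was not tested.

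**Figure D3:**
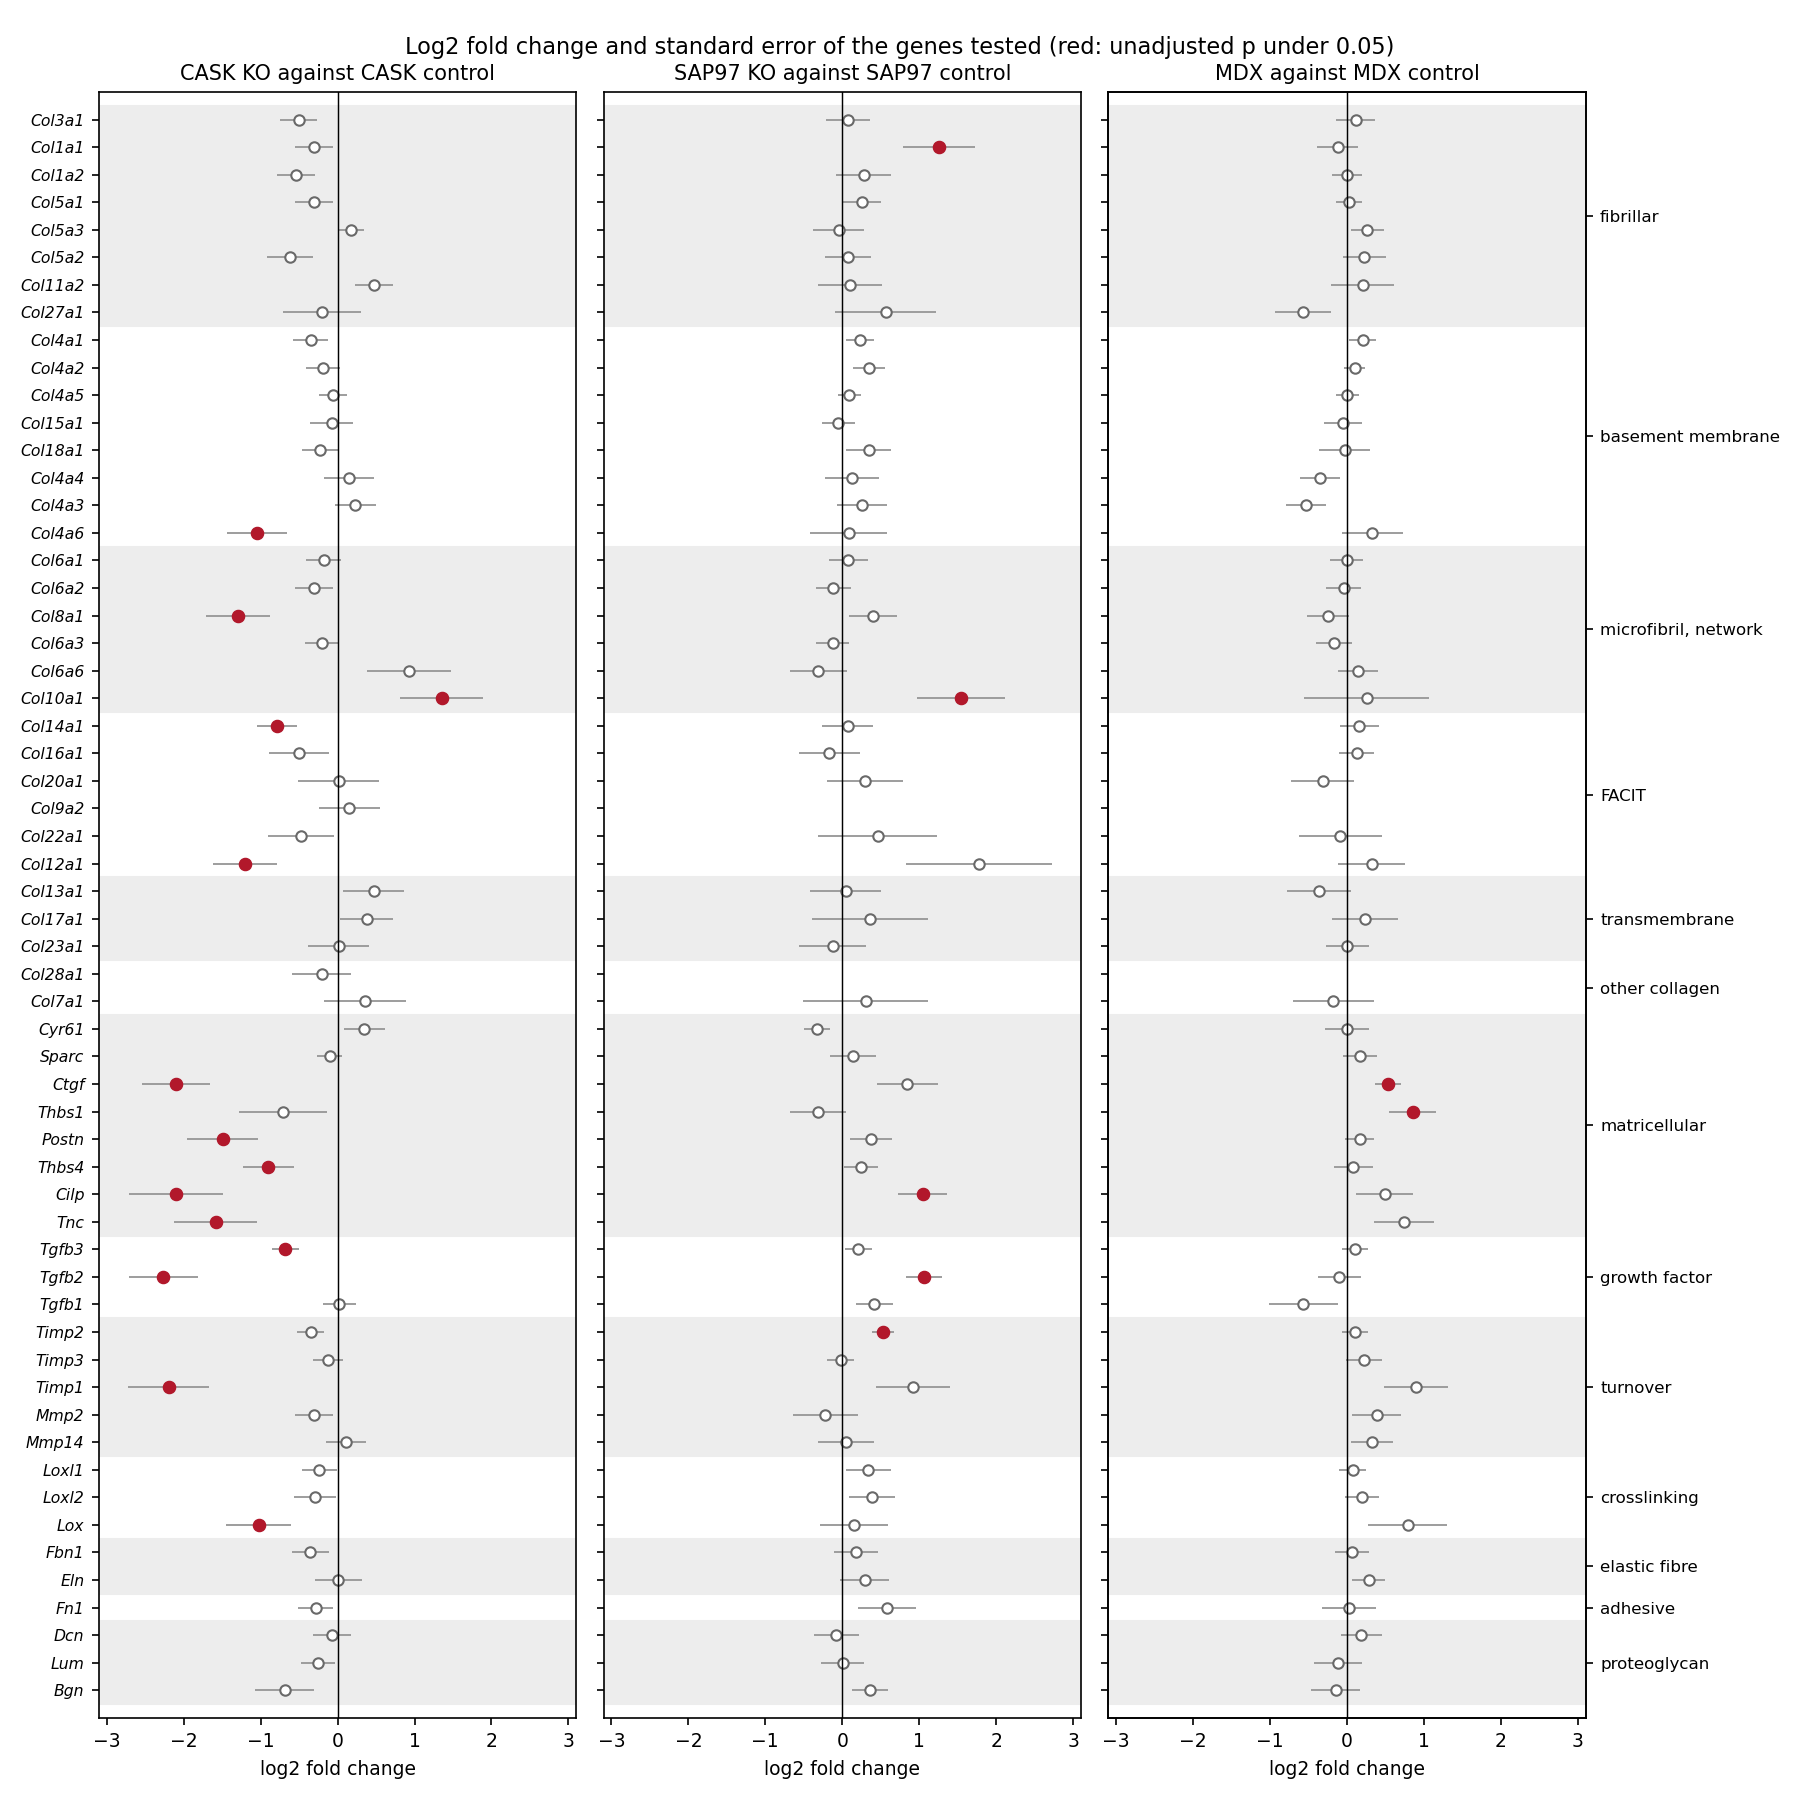
Log2 fold change of each gene tested, with its standard error, in the 3 comparisons; genes are ordered by role from top to bottom, and red points have an unadjusted p under 0.05. In the CASK comparison 13 red points lie left of 0 and 1 right of it, in the SAP97 comparison 5 lie right of 0, and in the MDX comparison 2 lie right of 0.

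Other genes of collagen making, of basement membranes and of TGF-beta signalling were read from lists. Of 24 genes of collagen biosynthesis, 22 were tested in the CASK comparison, and 18 of them had a log2 fold change below 0 and 4 above, with 0 called. The lowest was Pcolce, which enhances removal of the procollagen C-propeptide, with 16.9 ± 0.428 CPM in CASK KO and 31.2 ± 2.39 CPM in CASK control (SD, n = 3 each; log2 fold change -0.86, adjusted p = 0.143 by edgeR). In the SAP97 comparison Pcolce was the highest of the list, with 15.8 ± 2.33 CPM in SAP97 KO and 7.43 ± 1.98 CPM in SAP97 control (SD, n = 3 each; log2 fold change 1.16, adjusted p = 0.254 by edgeR), and 13 of 22 genes were above 0. The collagen receptor Ddr1 had log2 fold changes of -0.67 in the CASK and 0.75 in the SAP97 comparison (adjusted p = 0.268 and 0.333 by edgeR), at the ends of a list of 9 receptors of which 6 were tested. Of 22 genes of the TGF-beta pathway, 21 were tested in each comparison with 0 called, and medians were -0.02, -0.06 and 0.07 in the CASK, SAP97 and MDX comparisons. Of 11 partners of basement membrane collagens, such as laminins and perlecan, all were tested with 0 called, and 7, 7 and 6 had a log2 fold change above 0 in the CASK, SAP97 and MDX comparisons.

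The difference between the effects of each pair of lines was tested in 1 model of all 21 libraries, in which 60 genes of the set were tested. The lines share no mice, and the model does not use the pairing taken for the CASK line. By the labels, Cre differs between knockout and control in the SAP97 line only, where it cannot be told apart from loss of SAP97. Between the CASK and SAP97 effects, 1 gene of the set was called, against 52 of all genes (0.326%). This was Tgfb2, whose effect in the CASK line was lower than that in the SAP97 line by a log2 difference of -3.32 (SE 0.54, adjusted p = 0.0034). The call was lost in 8 of 12 fits that left out 1 library, although the difference stayed between -3.69 and -2.98 with an adjusted p of 0.000326 to 0.0148. With the replicate number of the CASK line as a block in this model, chosen after seeing the data, it was -3.23 (adjusted p = 0.00245). Ctgf followed with -2.92 (SE 0.58, adjusted p = 0.0166), Cilp with -3.13 (SE 0.74, adjusted p = 0.0561) and Timp1 with -3.09 (SE 0.76, adjusted p = 0.0675), and 14 genes of the set had an unadjusted p under 0.05, against 6.74% of all genes. Between the CASK and MDX effects, 0 genes of the set were called, against 12 of all genes (0.0752%). Ctgf came nearest, at -2.66 (SE 0.53, adjusted p = 0.0483), and 15 genes had an unadjusted p under 0.05 (6.58% of all genes). Between the SAP97 and MDX effects, 0 genes of the set were called, against 1 of all genes (0.00626%), and 3 had an unadjusted p under 0.05 (5.26%).

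Since each comparison depends on its own control group, the 3 control groups were compared in the same model. Here 9 of the 60 genes were called by the F test of edgeR, against 345 of all 15962 genes (2.16%). They were the growth factors Tgfb2 (adjusted p = 3.99e-05) and Tgfb3 (0.00832), the matricellular genes Cilp (9.98e-05), Ctgf (0.000193), Postn (0.00113) and Tnc (0.00317), the inhibitor Timp1 (0.000147), the network collagen Col8a1 (0.00562) and the crosslinking enzyme Loxl1 (0.008). Thus 8 of the 9 were not collagens, but this share depended on the filter and on 1 library. With no filter on low counts 18 genes of the set were called, among them the collagens Col14a1, Col1a1, Col1a2, Col3a1, Col5a2, Col6a3 and Col8a1 and no longer Tgfb3, and without CASK control replicate 3 there were 13, among them Col16a1, Col4a1, Col5a2 and Col8a1. With the replicate number of the CASK line as a block, an alternative chosen after seeing the data, 8 were called (1.88% of all genes). Loxl1 was not called there (adjusted p = 0.0108). CASK control had the highest group mean for these genes. Tgfb2 had 34.4, 28.2 and 11.1 CPM in CASK control, against 2.92 to 7.60 CPM in the 8 SAP97 control and MDX control libraries. Timp1 had 6.82, 9.25 and 3.02 CPM in CASK control, against 0.271 to 1.28 CPM in the other 8 libraries. For both genes all 3 CASK control mice lay above all 8 others, and replicate 3 was the lowest of the 3.

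Ctgf had 275, 201 and 72.6 CPM in CASK control, against 21.1 to 62.4 CPM in the other 8 control libraries, and Cilp 15.7, 20.5 and 3.24 CPM, against 0.638 to 2.71 CPM. Postn had 39.99, 49.0 and 10.9 CPM in CASK control, against 4.43 to 15.6 CPM, and Col8a1 20.1, 19.7 and 6.18 CPM, against 2.44 to 7.76 CPM. For these last 2 genes replicates 1 and 2 lay above the 8 others and replicate 3 within them. Loxl1 differed mainly through the SAP97 control mice, with a log2 difference of 1.26 between CASK control and SAP97 control and of 0.08 between CASK control and MDX control. In all, 8 of the 60 genes were higher in every CASK control library than in any other control library (5.34% of all genes), and 1, the transmembrane collagen Col13a1, was lower (1.98% of all genes). Tgfb2, Cilp, Timp1 and Ctgf were called in each of the 11 fits that left out 1 control library. In all, 4 genes were called without CASK control replicate 1 (0.951% of all genes) and 4 without replicate 2 (0.791%). Without SAP97 control replicate 2 there were 5 (1.62%). In the CASK KO mice, Tgfb2 (3.31 to 6.89 CPM) and Ctgf (34.0 to 51.3 CPM) lay within the range of the 8 other control libraries, whereas Cilp (3.60, 3.60 and 1.78 CPM) and Timp1 (1.04, 2.35 and 0.684 CPM) reached above it, Cilp in 2 CASK KO mice and Timp1 in 1. Activated fibroblast markers, mostly Acta2, summed to 91.0 to 353 CPM in CASK control. They summed to 27.5 to 53.9 CPM in SAP97 control and 33.7 to 64.7 CPM in MDX control. Acta2 alone had 187, 332 and 83.1 CPM in CASK control. The part of these cells was not tested.

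**Figure D4:**
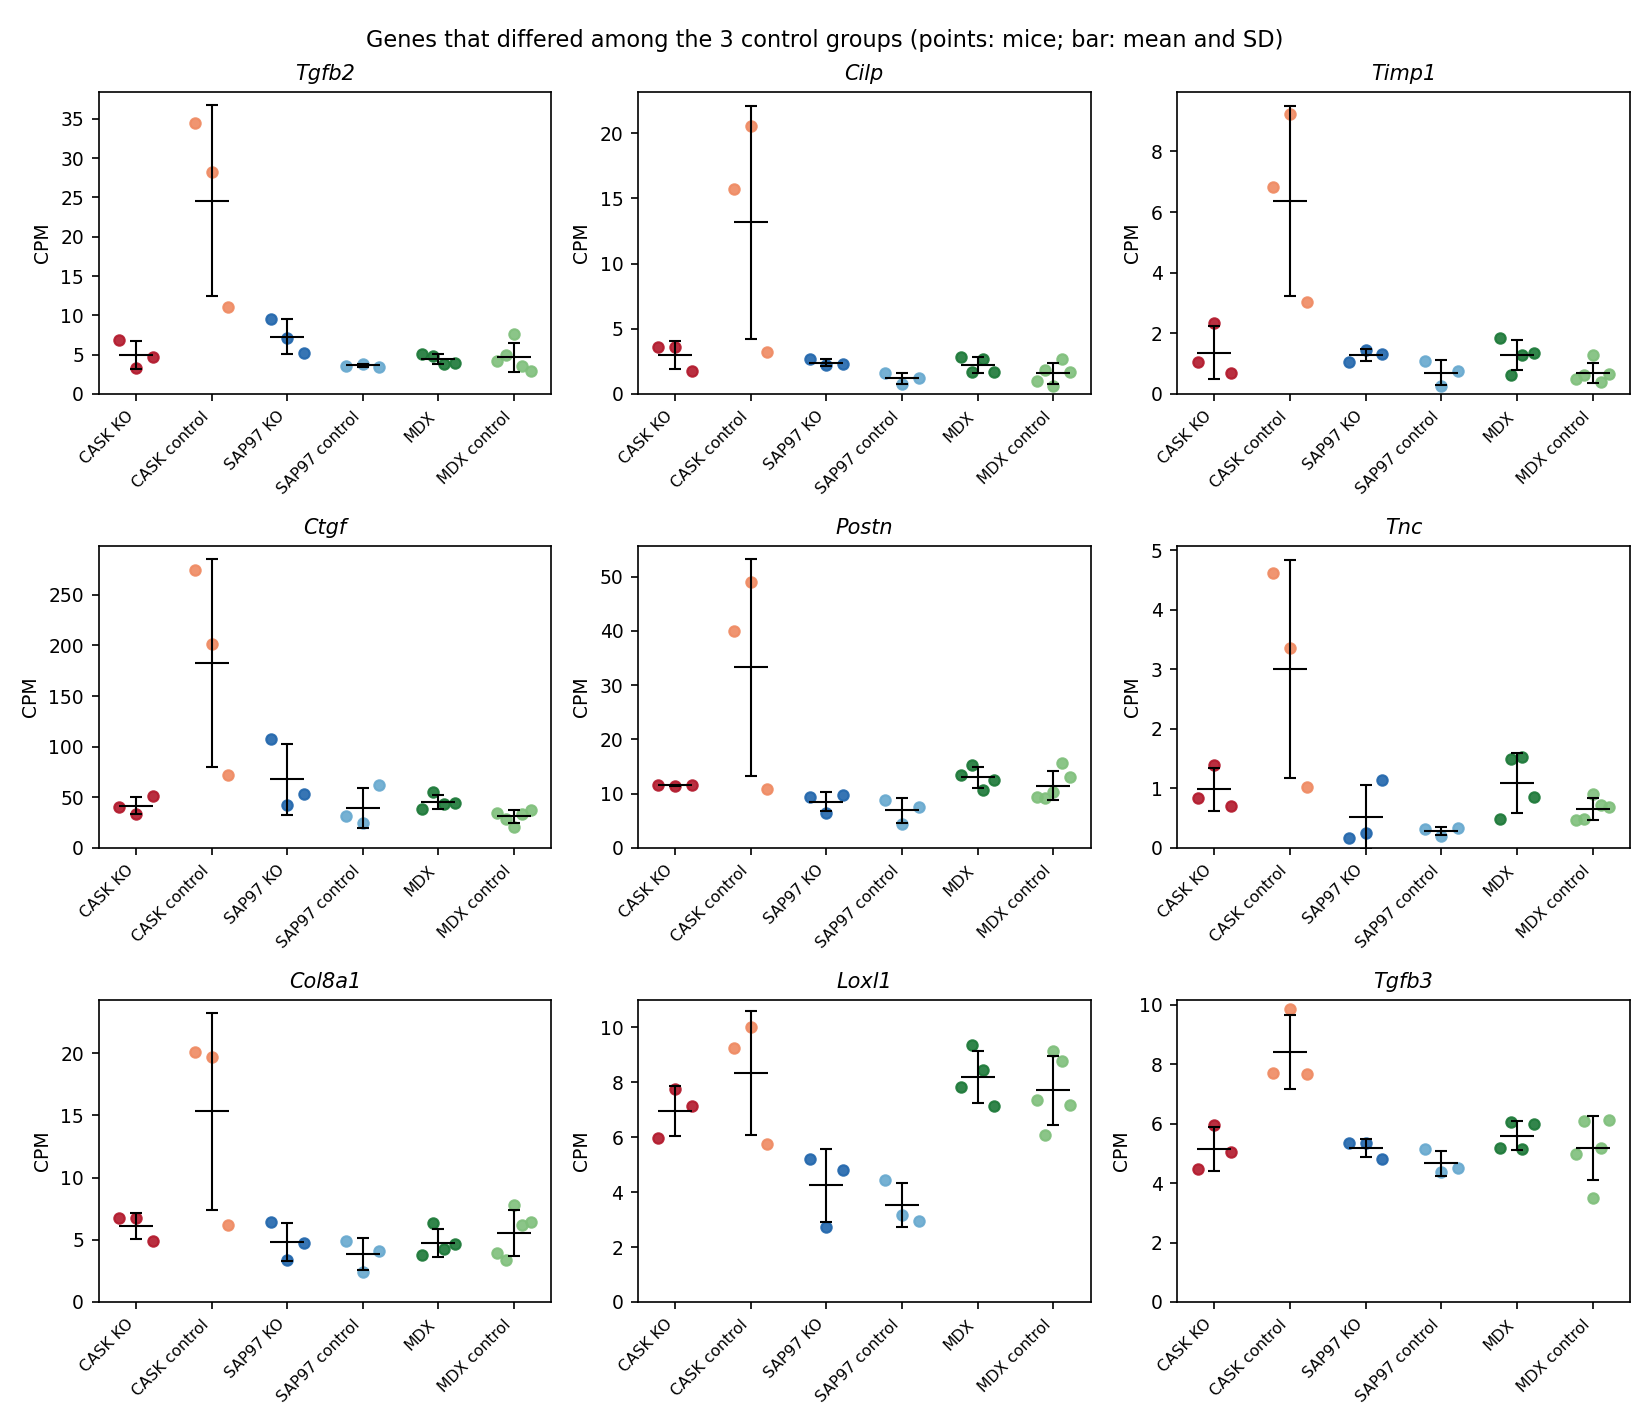
CPM of the 9 genes that differed among the 3 control groups, with each knockout left of its control; points are mice and bars the mean and SD. The 3 CASK control mice lie above the 8 other control mice for Tgfb2, Cilp, Timp1, Ctgf, Tnc and Tgfb3.

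The promoter sequences before 3 of these genes are given because CASK control had the highest mean of the control groups for each. For Postn, CASK control replicate 3 lay within the range of the other control libraries. The sequences are the 250 bases before the annotated start in RefSeq (GRCm38.p6), read 5' to 3' on the strand of the gene, and capitals mark matches to the motifs searched. The windows are chr1:186705990-186706239 on the minus strand for Tgfb2, chr3:54360857-54361106 on the plus strand for Postn and chrX:20869916-20870165 on the plus strand for Timp1.
Tgfb2: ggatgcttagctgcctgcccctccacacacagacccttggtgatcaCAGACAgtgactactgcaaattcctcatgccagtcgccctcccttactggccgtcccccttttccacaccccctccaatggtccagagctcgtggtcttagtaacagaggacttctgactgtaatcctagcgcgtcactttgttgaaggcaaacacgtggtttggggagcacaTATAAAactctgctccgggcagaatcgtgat
Postn: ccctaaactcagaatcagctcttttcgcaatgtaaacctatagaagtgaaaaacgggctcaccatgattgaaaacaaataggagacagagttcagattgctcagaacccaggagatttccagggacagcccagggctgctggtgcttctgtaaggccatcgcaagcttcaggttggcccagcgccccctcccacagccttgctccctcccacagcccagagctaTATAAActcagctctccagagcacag
Timp1: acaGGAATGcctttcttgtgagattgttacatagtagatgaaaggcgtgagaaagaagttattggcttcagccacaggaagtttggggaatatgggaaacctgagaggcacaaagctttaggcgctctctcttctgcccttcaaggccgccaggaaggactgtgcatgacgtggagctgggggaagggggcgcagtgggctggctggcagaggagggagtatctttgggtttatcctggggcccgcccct
The Tgfb2 window held CAGACA, a Smad-type element, with its first base 204 bases before the start, and TATAAA, the TATA box, at 31 bases. The Postn window held TATAAA at 26 bases and the Timp1 window GGAATG, a TEAD-type element, at 247 bases. Of 51 genes of the set with a window in the table, 14 held CAGACA on either strand (17.1% of 32851 windows), 7 held GGAATG on either strand (12.6%), 10 held TATAAA on the gene's own strand (7.59%) and 1 held the AP-1 element TGANTCA (6.75%). These matches describe letters only.

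How the genes varied between mice of 1 group was described against Pdgfra, a marker of fibroblasts, and Pecam1, a marker of endothelial cells. Group means of log2(CPM + 0.5) were subtracted, and 13 pairs were tested over 21 libraries by permutation within groups, 100000 times. The highest r was that of Col4a1 with Pecam1 (r = 0.793, adjusted p = 0.00817; rho = 0.778, adjusted p = 0.00646; r = 0.764 without the 2 libraries farthest from the median of Pecam1). By rank, Postn with Pecam1 was higher (r = 0.756, adjusted p = 0.00817; rho = 0.843, adjusted p = 0.00646; r = 0.760 without the 2 farthest). Col3a1 followed Pdgfra (r = 0.702, adjusted p = 0.00817; rho = 0.701, adjusted p = 0.00842; r = 0.650 without the 2 farthest), as did Col1a1 (r = 0.693, adjusted p = 0.00817; rho = 0.746, adjusted p = 0.00646; r = 0.663 without the 2 farthest). The other marker also gave relations for Col3a1, Col4a1 and Postn. For Col1a1 with Pecam1, r was 0.589 (adjusted p = 0.0298) and rho 0.552 (adjusted p = 0.052), and r was 0.459 without the 2 farthest. Ctgf with Pdgfra did not pass at 0.05, with r = 0.556 (adjusted p = 0.0532) and rho = 0.487 (adjusted p = 0.0816). Col3a1 had r = 0.715 with Pecam1 (adjusted p = 0.0112; rho = 0.707, adjusted p = 0.0103; r = 0.671 without the 2 farthest), Col4a1 r = 0.674 with Pdgfra (adjusted p = 0.00817; rho = 0.643, adjusted p = 0.0103; r = 0.597 without the 2 farthest) and Postn r = 0.663 with Pdgfra (adjusted p = 0.00982; rho = 0.707, adjusted p = 0.00893; r = 0.655 without the 2 farthest). Ctgf had r = 0.723 with Pecam1 (adjusted p = 0.00817; rho = 0.743, adjusted p = 0.0065; r = 0.774 without the 2 farthest). In contrast, Timp1 had no detectable relation with Pdgfra (r = 0.125, adjusted p = 0.775; rho = 0.108, adjusted p = 0.826) or Pecam1 (r = 0.0737, adjusted p = 0.775; rho = 0.0208, adjusted p = 0.961), nor Ctgf with its relative Cyr61 (r = 0.0842, adjusted p = 0.775; rho = -0.013, adjusted p = 0.961). In all, 9 of the 13 pairs had an adjusted p of r under 0.05. Leaving out each library in turn, an alternative chosen after seeing the data, kept r between 0.762 and 0.831 for Col4a1 with Pecam1 and between 0.669 and 0.752 for Col3a1 with Pdgfra. The round in which each library was sequenced is not given in the sources used here, so no values within rounds are given.

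**Figure D5:**
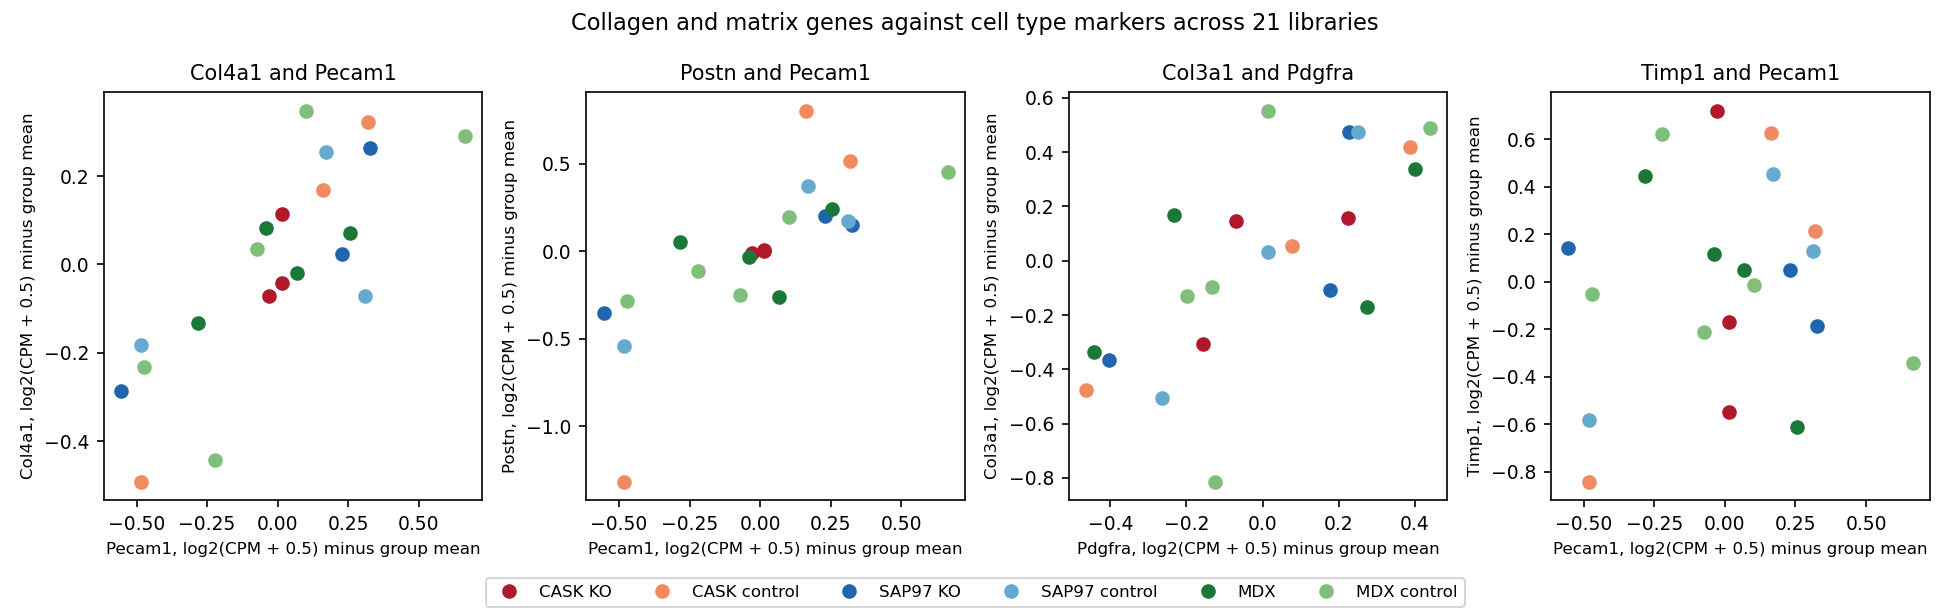
Genes of the set against cell type markers, in log2(CPM + 0.5) with group means subtracted, 1 point per library and colours by group. Col4a1 is higher where Pecam1 is higher (r = 0.793), and Col3a1 where Pdgfra is higher (r = 0.702), while Timp1 shows no such order with Pecam1 (r = 0.0737).

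Some values depend on how overlapping genes were counted. Exons of a gene on the other strand cover 23.2% of the exon bases of Ctgf, 21.3% of those of Timp3, 20.1% of those of Fbn1 and 12.4% of those of Tgfb3, and exons of a same-strand gene cover 18.8% of those of Spp1. Whether strand was used in counting is not given in the sources used here, so reads of these genes and their neighbours may not be told apart.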

How the data were processed

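RNA was sequenced from ventricular cardiomyocytes of 22 mice, with a stranded total RNA kit, and 21 libraries were analysed, since MDX replicate 1 was left out as in the study. The authors aligned the reads to GRCm38 and counted read pairs per gene, and the deposited counts are whole numbers with no scaling. Tools listed in the processing notes of the submitters are TopHat2 2.0.13 and Bowtie2 2.2.1 for alignment, HTSeq 0.6.1 for counting and FastQC 0.11.2. The deposited fold changes and p-values of the authors' own comparisons were not used. Groups were taken from the sample titles.

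For each line, edgeR 4.0.16 was run on the counts under R 4.3.3 (filterByExpr, TMM, quasi-likelihood F test, 2-sided), with p-values adjusted by Benjamini-Hochberg over all genes and genes called at 0.01. Differences between lines and among controls were tested in 1 edgeR model of 6 groups, on the 15962 genes that passed the filter, leaving out genes whose counts differed by a ratio over 1.1 between annotation releases. A gene with an unadjusted p under 0.05 was only counted. Alternatives were DESeq2 1.42.0, its size factors, no filter, the replicate number as a block, leaving out each library and, for MDX, leaving out the backcrossed mice. The number of the CASK mice as a block in the model of 6 groups was added after seeing the data. Scripts were tested on simulated data. No replicate pair agreed within sampling noise. In the CASK line, mice with the same number deviated together from their group means (r = 0.45, 0.24 and 0.22), so the number was taken to pair them; where this comes from is not given in the sources used here.

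Genes given with full values were the 6 with the largest fold change in each comparison, those called, and the highest per role, 27 in all; other genes named were chosen after their values were seen. The members and lists were chosen with earlier results of these data known. Exon lengths for CPM per kilobase were taken from the deposited table. For some genes they differ from the exon bases used for exon overlap. Promoter sequences and gene starts came from reference tables on GRCm38, in which 51 of the 70 genes had a promoter. Permutation p-values used 100000 resamples. Other steps used Python 3.11.15 (scipy 1.17.1, numpy 2.4.6, pandas 2.3.3, matplotlib 3.10.9).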

Additional observations from a re-analysis of the deposited data

Results flagged for a closer look

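In groups of 4 or 5 mice, 54 sets of values of the named genes were searched for a single library that stood apart by Dixon's test, of which chance marks about 1 in 20, and 5 were found. Of these, 3 concerned MDX control replicate 3, with Tgfb1 at 13.8 CPM (2.90 to 5.23 CPM in the other 4 mice), Col27a1 at 1.81 CPM (0.615 to 0.909 CPM) and Timp1 at 1.28 CPM (0.41 to 0.643 CPM). The others were Lox at 1.68 CPM in MDX replicate 4 (0.705 to 0.824 CPM in the other 3 mice) and Col13a1 at 1.02 CPM in MDX replicate 2 (0.609 to 0.666 CPM).

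Differences between the effects of 2 lines were flagged for 3 genes, of which only Tgfb2 passed the test. Tgfb2 differed between the CASK and SAP97 effects by the test of the difference itself, at a log2 difference of -3.32 (adjusted p = 0.0034 by edgeR). Every CASK KO library lay below, and every SAP97 KO library above, its own controls for Timp2, at a log2 difference of -0.87 between the effects (adjusted p = 0.143 by edgeR). For Ctgf, every CASK KO library lay below, and every MDX library above, its own controls, at a log2 difference of -2.66 (adjusted p = 0.0483 by edgeR). The last 2 differences did not pass the test at 0.01. Lying below every own control held for 9.38% of all genes in the CASK comparison. Lying above them held for 5.21% in the SAP97 and 0.597% in the MDX comparison. The share of all genes with opposite patterns in 2 lines is not given here.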

How the results depend on the processing

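In the CASK comparison, DESeq2 called 3 genes of the set and the fit with no filter 7 (182 of all genes, against 0 with the filter), while genes higher at an unadjusted p under 0.05 numbered 0 with DESeq2, 2 with no filter, 2 with the replicate block and 0 to 2 when 1 library was left out, and genes lower 7 to 25. In the SAP97 comparison, no filter gave 4 called genes (134 of all genes, against 3), 11 higher and 1 lower; DESeq2 gave 1 lower, and leaving out 1 library gave 3 to 11 higher, 0 to 1 lower and a median of -0.073 to 0.35 (11 higher without SAP97 KO replicate 2; 3 higher, 1 lower and the lowest median without SAP97 KO replicate 3). In the MDX comparison, 4 genes were higher with DESeq2, 5 with no filter and 1 to 4 without 1 library (1 without MDX replicate 4, 4 without MDX control replicate 3), and 0 to 1 lower (1 without MDX control replicate 2). With no filter, 5 genes differed between the CASK and SAP97 effects (0.334% of all genes) and 5 between the CASK and MDX effects (0.182%). Among the controls 18 did (2.12%). Without 1 library these counts were 0 to 4, 0 to 4 and 4 to 13. The count of 4 in both differences came without CASK control replicate 3 (0.468% and 0.146% of all genes). Leaving out 1 library gave a log2 fold change of -0.31 to 2.25 for Col12a1 in the SAP97 comparison (-0.31 without SAP97 KO replicate 3) and of -0.76 to 0.062 for Tgfb1 in the MDX comparison (0.062 without MDX control replicate 3). The cause of these shifts was not tested. The replicate block changed no other call among genes of the set; in the SAP97 comparison 0 of all genes were called with it, against 3. In the model of all libraries, the block was run for the CASK line only and took Loxl1 out of the 9 control differences. In the SAP97 line mice with the same number had r = 0.01, 0.09 and -0.35. In the MDX line r was -0.07, 0.07, 0.43 and 0.66 for replicates 2 to 5, so replicates 4 and 5 also deviated together. The replicate 5 mice of MDX and MDX control are both Mixed and backcrossed. The paper proposes a batch effect as the likely source of variation among MDX control mice, since sequencing was done in 2 rounds. Which libraries belong to which round is not given in the sources used here, and a part of the rounds was not tested. In the SAP97 and MDX lines the number was not taken to pair mice. The block, which in the MDX line leaves out MDX control replicate 1, gave 6 higher genes in the SAP97 and 2 in the MDX comparison. RLE size factors and leaving out the backcrossed mice changed no direction or call. Of the targeted genes, edgeR called only Dlg1, in the SAP97 comparison (adjusted p = 0.000933). With 3 mice a group, it did not call Cask itself in the CASK comparison. Nor did it call Dmd in the MDX comparison, with 4 MDX and 5 MDX control mice (adjusted p = 0.068). The absence of calls therefore does not show that levels were equal.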
